A study of Arabidopsis thaliana with 12 samples.

Results

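The chloroplast genome of Arabidopsis encodes part of the machinery that reads it, and 26 of these genes are described here across 3 genotypes in hypoxia and in air. They were chosen by name: ribosomal protein genes (rpl and rps), the RNA polymerase genes rpoA, rpoB, rpoC1 and rpoC2, and accD, clpP, matK, ccsA, cemA and the ycf genes, wherever a probe set was assigned to a single such gene. Of 34 chloroplast genes with such a name, 26 had their own probe set. The array carries 22746 probe sets without controls, and 13356 genes have a probe set assigned to them alone. They are 7 genes of the large ribosomal subunit, 8 of the small subunit, 4 polymerase subunits and 7 others. The genes rpl2, rpl23, rps7, rps12, ycf1 and ycf2 were read only by 7 probe sets shared between gene copies. The rule itself uses names and no measured value, though it was set with earlier results of these data known. All 26 passed the filter on low signal (log2 4 or more on at least 2 arrays).

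RNA from whole Arabidopsis thaliana seedlings of the Columbia-0 ecotype, 7 days old, was measured on 12 ATH1 arrays. HRE1ox and HRE2ox seedlings carried HRE1 or HRE2, ethylene response factors of the low-oxygen response, under the constitutive 35S promoter, and wild-type (WT) seedlings were Col-0. All had been grown with sucrose in a light/dark cycle, and were then kept for 4 h in darkness at 23 °C in hypoxia (1% oxygen) or air (21% oxygen). Each of the 6 groups, HRE1ox hypoxia, HRE1ox air, HRE2ox hypoxia, HRE2ox air, WT hypoxia and WT air, has 2 arrays, which the series describes as biological replicates. How many independent transgenic lines stand behind HRE1ox and HRE2ox is not given in the sources used here. Air and hypoxia seedlings were thus both in the dark. The gene annotation used here assigned no probe set to HRE1 or HRE2, so overexpression was not checked here.

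Plastids are transcribed by a bacterial-type RNA polymerase whose core is made of the rpoA, rpoB, rpoC1 and rpoC2 products, together with nuclear-encoded phage-type polymerases. Nuclear sigma factors give the bacterial-type enzyme its promoters, and the phage-type enzymes are known for transcribing housekeeping genes such as rpoB, clpP and accD. The transcripts are translated on bacterial-type ribosomes built from plastid rRNA and from plastid-encoded and nuclear-encoded proteins, and many genes are co-transcribed in long units that are later cut and spliced. Standard labelling of these arrays starts from poly(A) tails, which most plastid transcripts lack or carry only briefly, so a signal need not be proportional to transcript amount. The part of this in the values was not tested.

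Values are log2 (intensity + 1), 1 array per value, and in each pair the value of replicate 1 comes before that of replicate 2. The members ranged from 6.22 to 13.97, and the levels of different probe sets cannot be compared as amounts. Differences are in log2 units with the moderated SE of limma (n = 2 arrays per group). Each adjusted p comes from a limma fit across 13687 tested probe sets, and a value under 0.05 is a call. Each array of the series had a median intensity of 32.7 to 35.7, and with 2 arrays per group the number of arrays limits the precision. In whole seedlings, fewer plastid-rich cells and less RNA per cell cannot be told apart. One label conflict concerns WT air replicate 2, titled wild type but with 35S::HRE2 in its ecotype entry. It was used as titled, and the WT result below was also computed without it. Replicate 1 of both WT and both HRE1ox groups stood apart from the other 8 arrays: its thr 5' spike-in read 8.09 to 8.36, against 3.10 to 4.57, and its GAPDH 3' minus 5' signal was 1.88 to 2.20, against 2.41 to 2.94. Each WT and HRE1ox group holds 1 such array and the HRE2ox groups hold none.

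**Figure D1:**
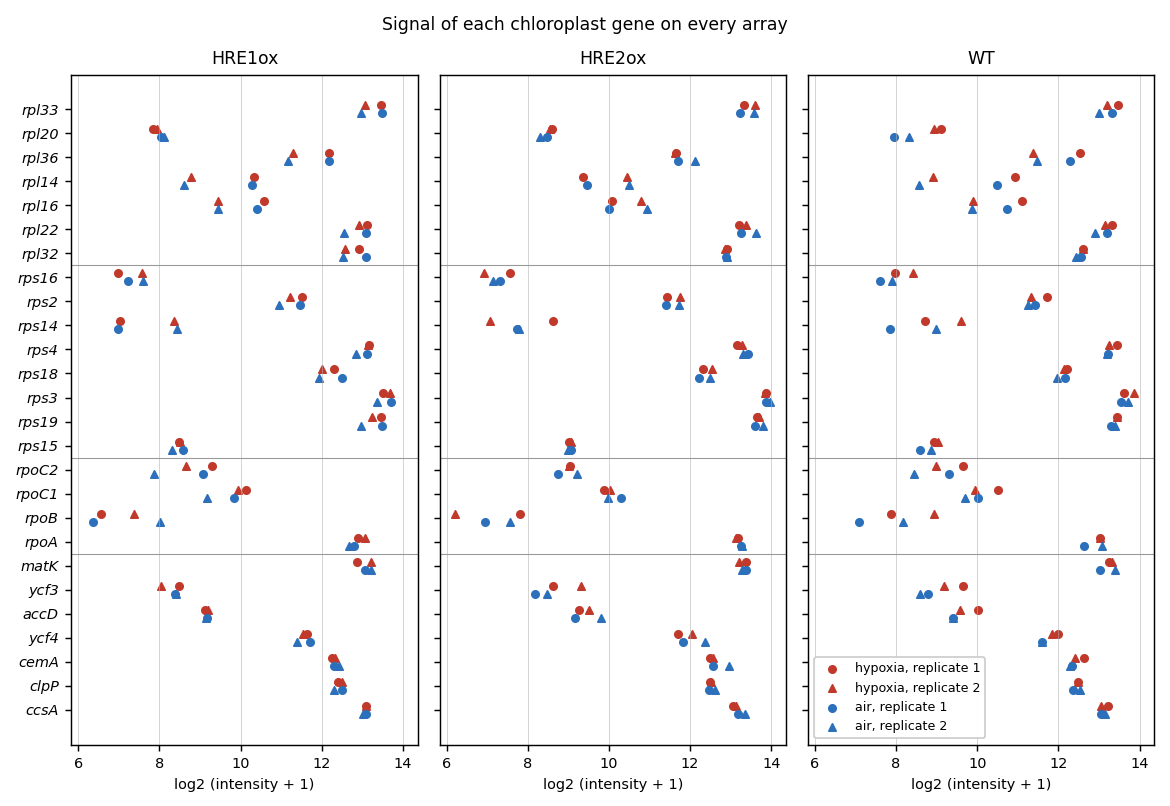
Signal of the 26 chloroplast genes on every array, as log2 (intensity + 1), in HRE1ox, HRE2ox and WT seedlings (red, hypoxia; blue, air; circles, replicate 1; triangles, replicate 2). Horizontal lines part the large subunit, small subunit, polymerase and other genes. Most genes lie close together on all arrays of a genotype, while rpoB, rps14 and rpl14 spread most, with ranges of 2.71, 2.63 and 2.36 over the 12 arrays.

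In WT seedlings all 26 genes averaged higher in hypoxia than in air, but for nearly all of them the difference was small and did not pass the test. Only rpl20, a protein of the large ribosomal subunit, was called. The median difference of the 26 was 0.19, against 0.21 for the other 43 chloroplast genes, all 43 of which also averaged higher, and -0.01 for all tested probe sets. The call of 1 in 26 stands beside 6.58% of all tested probe sets called in this comparison.

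The large ribosomal subunit is the part that joins amino acids into a protein chain. Signal for rpl20 was 9.11 and 8.93 in WT hypoxia, against 7.95 and 8.31 in WT air. Both hypoxia arrays lay above both air arrays, and the difference of 0.89 ± 0.15 passed the test (adjusted p = 0.00564). It was called in each of 4 fits that left out 1 WT array (adjusted p = 0.00634 to 0.0495), WT air replicate 2 among them, with differences of 0.71 to 1.08. In a fit of the 4 WT arrays alone the difference was still 0.89, but 0 of the 26 were called, beside 2.67% of all probe sets. In HRE1ox seedlings rpl20 read 7.85 and 7.93 in hypoxia, against 8.03 and 8.11 in air. These hypoxia arrays lay below the air arrays by 0.18 ± 0.15, a difference that did not pass the test (adjusted p = 0.54). HRE2ox seedlings had 8.59 and 8.56 in hypoxia, against 8.47 and 8.31 in air (0.18 ± 0.15, adjusted p = 0.633). Averaged over the 3 genotypes, hypoxia minus air was 0.30 ± 0.09 for rpl20 (adjusted p = 0.0318), beside 22.3% of all probe sets called. That average call was lost in 9 of 12 fits that left out 1 array. Over the 12 the difference was 0.24 to 0.36 (adjusted p = 0.0138 to 0.0861). It was the only member called in the average comparison.

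The other large-subunit genes were rpl14, rpl16, rpl22, rpl32, rpl33 and rpl36. Their WT hypoxia minus air differences ran from 0.07 for rpl36 to 0.40 for rpl14, and none passed the test. For rpl32 the 95% interval of the difference was -0.31 to 0.53, and for rpl14 it was -1.65 to 2.45. The replicates of rpl14 lay up to 2.02 apart within a group.

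Small-subunit genes encode proteins of the decoding subunit, and all 8 averaged higher in WT hypoxia than in WT air, by 0.10 to 0.74. The highest difference was that of rps14, with 8.70 and 9.60 in WT hypoxia, against 7.85 and 8.98 in WT air. The WT groups overlapped for rps14, since air replicate 2 lay above hypoxia replicate 1. For rps16, the values were 7.98 and 8.42 in WT hypoxia, against 7.60 and 7.91 in WT air, and these groups did not overlap. Both genes were singled out after their values were seen. Neither passed the test, with 0.74 ± 0.68 for rps14 (adjusted p = 0.73) and 0.44 ± 0.28 for rps16 (adjusted p = 0.532). The other 6 small-subunit genes, rps2, rps3, rps4, rps15, rps18 and rps19, differed by 0.10 to 0.26.

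The polymerase genes encode the alpha (rpoA), beta (rpoB), beta' (rpoC1) and beta'' (rpoC2) subunits of the bacterial-type enzyme. In WT hypoxia rpoA read 13.01 and 13.02, against 12.62 and 13.07 in WT air. The rpoB signal was 7.87 and 8.93 in WT hypoxia, against 7.10 and 8.17 in WT air. For rpoC1 the values were 10.50 and 9.95 in WT hypoxia, against 10.03 and 9.70 in WT air. In all 3 genes the WT groups overlapped. The WT hypoxia arrays gave 9.65 and 8.98 for rpoC2, against 9.29 and 8.45 in WT air, which also overlapped. The 4 differences were 0.17 to 0.77, and 0 of 4 passed the test. By replicate number, hypoxia lay above air in both replicates for rpoB, rpoC1 and rpoC2, and in replicate 1 only for rpoA.

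The 7 remaining genes have separate roles in the plastid. For accD, a subunit of the acetyl-CoA carboxylase that starts fatty acid synthesis, WT hypoxia gave 10.01 and 9.58, against 9.40 and 9.41 in WT air. For clpP, the proteolytic subunit of the Clp protease, WT hypoxia gave 12.48 and 12.47, against 12.36 and 12.52 in WT air. The groups did not overlap for accD and did for clpP, whose difference of 0.04 had a 95% interval of -0.25 to 0.32. WT hypoxia gave 13.24 and 13.31 for matK, a maturase of intron splicing, against 13.03 and 13.38 in WT air. The cytochrome c assembly gene ccsA read 13.21 and 13.04 in WT hypoxia, against 13.05 and 13.14 in WT air. Both matK and ccsA thus overlapped, with differences of 0.06 and 0.03. For cemA, an inner envelope membrane protein, the values were 12.62 and 12.41 in WT hypoxia, against 12.34 and 12.28 in WT air. The photosystem I assembly factors ycf3 and ycf4 read 9.65 and 9.18, and 11.99 and 11.83, in WT hypoxia. In WT air ycf3 read 8.78 and 8.60, and ycf4 read 11.59 and 11.60. For cemA, ycf3 and ycf4, both hypoxia arrays lay above both air arrays. The largest of these differences was 0.72 ± 0.26 for ycf3 (adjusted p = 0.164).

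Matched by replicate number, WT hypoxia lay above WT air in replicate 1 for 26 of 26 genes and in replicate 2 for 21 of 26. The median difference was 0.32 in replicate 1 and 0.17 in replicate 2. The 5 genes that lay below air in replicate 2 were ccsA, clpP, matK, rpl36 and rpoA. Over all tested probe sets the shares above 0 were 48.5% and 47.1%, and 33.3% were above in both replicates. Among the other 43 chloroplast genes 41 and 33 were above 0. In HRE1ox seedlings 13 of 26 were above 0 in replicate 1 and 19 in replicate 2, with 10 above in both, against 37.8% of all tested probe sets. In HRE2ox seedlings the counts were 16 and 7, with 5 above in both, against 30.6%. Matching by number is less well grounded in HRE2ox. There the replicate 1 minus replicate 2 difference correlated at 0.35 between hypoxia and air, over all tested probe sets. WT hypoxia and air groups did not overlap, with hypoxia higher, for 10 of 26 genes (18.2% of all tested probe sets), and with hypoxia lower for 0 (21.6%). Among the other 43 chloroplast genes these counts were 14 and 0.

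**Figure D2:**
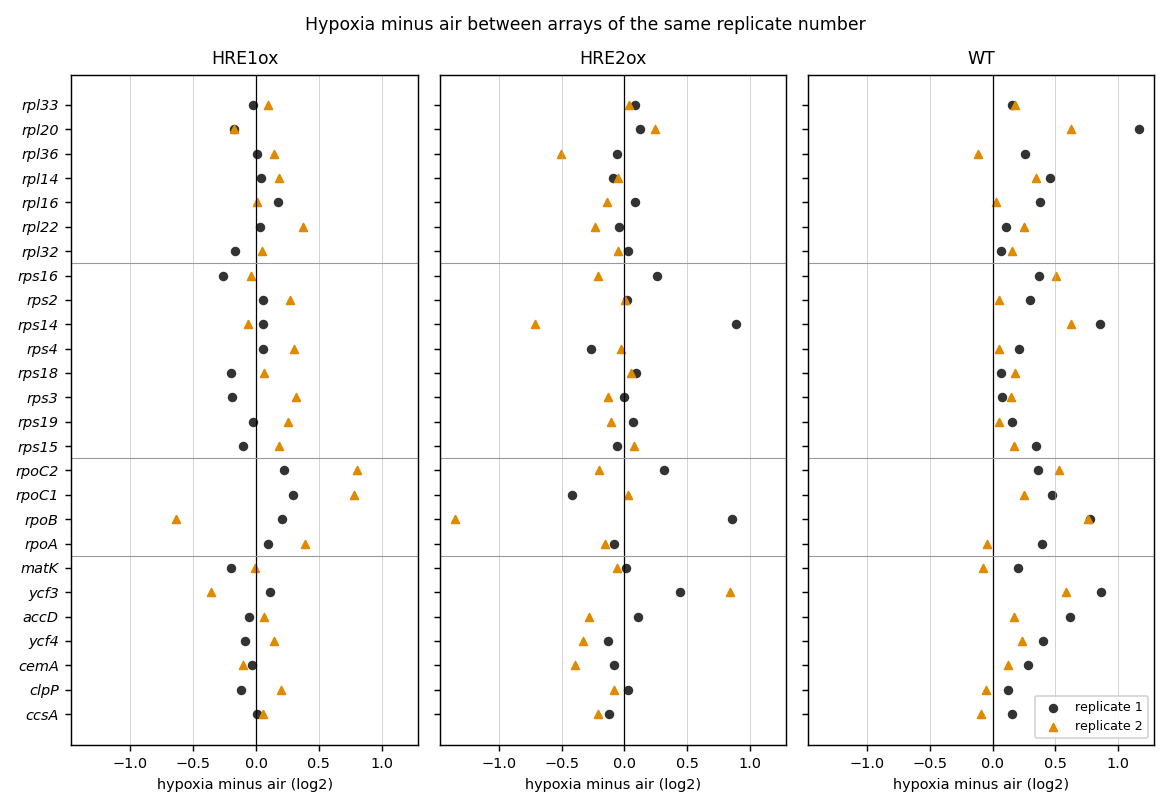
Hypoxia minus air (log2) between arrays of the same replicate number, for 26 chloroplast genes in HRE1ox, HRE2ox and WT (circles, replicate 1; triangles, replicate 2; the vertical line is no difference). In WT, 26 genes in replicate 1 and 21 in replicate 2 lie right of the line, with medians of 0.32 and 0.17. In HRE1ox and HRE2ox the genes lie on both sides, and matching by number is less well grounded in HRE2ox.

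Replicate number was shared by the WT and HRE1ox groups in the arrays themselves: over all tested probe sets the replicate 1 minus replicate 2 difference correlated at 0.67 to 0.75 between these groups, and at -0.58 to -0.24 between each of them and an HRE2ox group. Between HRE2ox hypoxia and HRE2ox air the correlation was 0.35. These correlations are a description over probe sets that share arrays. When the 8 arrays of WT and HRE1ox were fitted with a block for replicate number, the differences stayed as they were and only the spread changed. In that fit 5 genes rose in WT hypoxia: rpl20 (adjusted p = 0.0047), rps14 (0.0137), rps16 (0.0307), rpoB (0.0328) and ycf3 (0.0131). The 5 of 26 stand beside 16.1% of all tested probe sets and 9 of the other 43 chloroplast genes. The rps14 difference of 0.74 had an SE of 0.14 in this fit, and that of rpoB, 0.77, an SE of 0.19. All 5 genes had a mean below log2 10, as 10 of the 26 did.

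HRE1ox seedlings showed no called change of these genes in hypoxia against HRE1ox air in the 12-array fit, where 12.4% of all tested probe sets were called. The count at an unadjusted p under 0.05 was also 0 of 26, beside 3332 of the 13687 tested probe sets. The median difference was 0.04, the same as for the other 43 chloroplast genes. With the replicate block, 2 polymerase genes rose, beside 27.0% of all probe sets called. HRE1ox hypoxia gave 10.14 and 9.94 for rpoC1, against 9.84 and 9.16 in HRE1ox air, and the blocked difference was 0.54 ± 0.13 (adjusted p = 0.0243). For rpoC2 the values were 9.29 and 8.66 in HRE1ox hypoxia, against 9.06 and 7.86 in HRE1ox air (0.51 ± 0.15, adjusted p = 0.0425). Hypoxia lay above air in both replicates for both genes, and the groups overlapped for rpoC2. The rpoA signal was 12.89 and 13.06 in HRE1ox hypoxia, against 12.80 and 12.68 in HRE1ox air, with no overlap. In contrast rpoB gave 6.56 and 7.37 in HRE1ox hypoxia, against 6.36 and 8.0 in HRE1ox air, higher in replicate 1 and lower in replicate 2. Its difference of -0.21 ± 0.69 (12 arrays) did not pass the test.

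None of the 7 other genes passed the test in HRE1ox hypoxia against HRE1ox air. For accD, HRE1ox hypoxia gave 9.13 and 9.20, against 9.18 and 9.14 in HRE1ox air. The clpP signal was 12.39 and 12.50 in HRE1ox hypoxia, against 12.50 and 12.30 in HRE1ox air. Neither gene separated the groups. HRE1ox hypoxia gave 12.86 and 13.20 for matK, against 13.06 and 13.21 in HRE1ox air. The ccsA values were 13.10 and 13.08 in HRE1ox hypoxia, against 13.09 and 13.02 in HRE1ox air. For ccsA both hypoxia arrays were thus between 0.01 and 0.06 above their matched air array. For cemA, HRE1ox hypoxia gave 12.26 and 12.31, against 12.29 and 12.42 in HRE1ox air. The ycf3 values were 8.48 and 8.05 in HRE1ox hypoxia, against 8.38 and 8.41 in HRE1ox air. In HRE1ox hypoxia ycf4 read 11.63 and 11.52, against 11.72 and 11.38 in HRE1ox air. The 7 differences ran from -0.13 for ycf3 to 0.04 for clpP.

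Within hypoxia, HRE1ox seedlings had lower signal than WT seedlings for 25 of the 26 genes on average, and rpl20 was again the only gene called. The rpl20 arrays read 7.85 and 7.93 in HRE1ox hypoxia, against 9.11 and 8.93 in WT hypoxia. The groups did not overlap, and rpl20 fell by 1.13 in HRE1ox relative to WT (SE 0.15, adjusted p = 0.00929). The share of all tested probe sets called was 0.84%. The call was lost in each of the 4 fits that left out 1 of these arrays (adjusted p = 0.0521 to 0.085), with differences of -1.22 to -1.04. In a fit of the 4 arrays alone the difference was still -1.13, but 0 of all 13687 probe sets were called. The median difference of the 26 genes was -0.22, against -0.18 for the other 43 chloroplast genes, of which 38 were lower. Of those 43 genes, 2 were called, both lower. This comparison and WT hypoxia minus air use the same WT hypoxia arrays.

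Among polymerase genes, rpoB read 6.56 and 7.37 in HRE1ox hypoxia, against 7.87 and 8.93 in WT hypoxia. The difference was -1.44 ± 0.69 (adjusted p = 0.688), and all HRE1ox arrays were lower than all WT arrays. For rpoC1, rpoC2 and rpoA the differences were -0.19, -0.34 and -0.04, and the groups overlapped. Small-subunit genes gave 7.02 and 8.36 for rps14 in HRE1ox hypoxia, against 8.70 and 9.60 in WT hypoxia, and 6.97 and 7.56 for rps16, against 7.98 and 8.42. Neither pair of groups overlapped. Of the other genes, ycf3 read 8.48 and 8.05 in HRE1ox hypoxia, against 9.65 and 9.18 in WT hypoxia (-1.15 ± 0.26, adjusted p = 0.103). For accD the HRE1ox values were 9.13 and 9.20 and the WT values 10.01 and 9.58 (-0.63 ± 0.22, adjusted p = 0.378). Both genes were lower in both HRE1ox arrays than in both WT arrays. By contrast, clpP and ccsA differed by -0.03 and -0.04, with 95% intervals of -0.32 to 0.25 and -0.31 to 0.24.

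With replicate number as a block, 5 genes fell in HRE1ox hypoxia relative to WT hypoxia. They were rpl20 (adjusted p = 0.00767), rps14 (0.00419), rps16 (0.00619), rpoB (0.0106) and ycf3 (0.00805). The count stands beside 3.43% of all tested probe sets and 7 of the other 43 chloroplast genes. Without overlap, 13 of 26 genes were lower in HRE1ox hypoxia than in WT hypoxia (16.1% of all tested probe sets), and 0 were higher (14.9%). Among the other 43 chloroplast genes 12 were lower and 0 higher. By replicate number 24 of 26 were lower in replicate 1, and 23 of 26 in replicate 2. HRE1ox was higher than WT for 48.1% and 48.8% of all tested probe sets, and for 4 and 10 of the other 43 chloroplast genes.

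**Figure D3:**
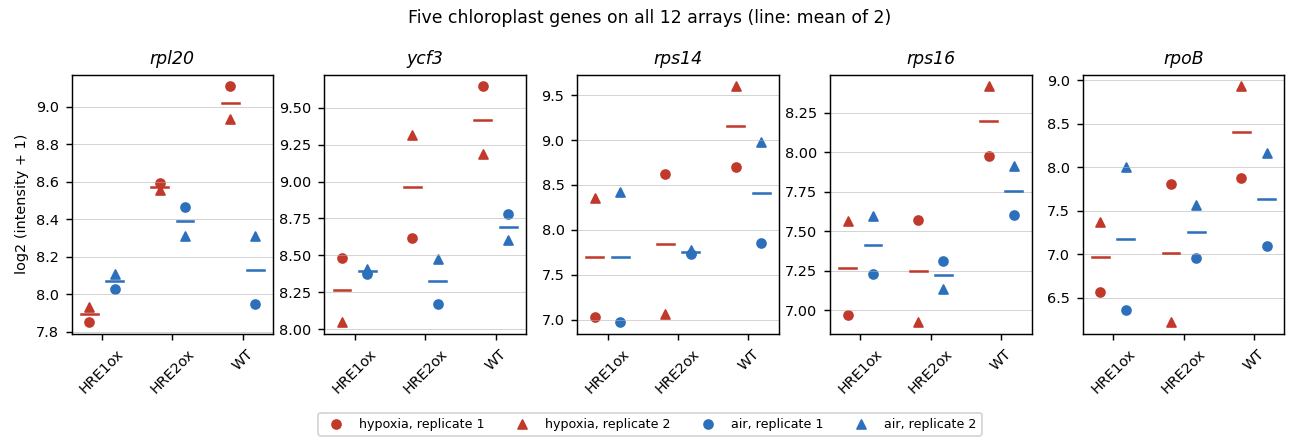
Signal on all 12 arrays, as log2 (intensity + 1), of the 5 genes called in WT hypoxia minus air with the replicate block, in HRE1ox, HRE2ox and WT (red, hypoxia; blue, air; circles, replicate 1; triangles, replicate 2; lines, means of 2; each gene has its own scale). The WT hypoxia arrays of rpl20 are at 9.11 and 8.93, above all other arrays of that gene, and those of rps14, rps16 and rpoB share a replicate order with WT air and HRE1ox.

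Between HRE1ox air and WT air, 0 of the 26 genes were called in the 12-array fit, beside 0.00731% of all probe sets. An unadjusted p under 0.05 was found for 0 of the 26, beside 1338 of the 13687 tested probe sets. With the replicate block 0 were called (1.35%). The median difference was -0.14, against -0.04 for the other 43 chloroplast genes. The lowest was rps14, at -0.71 ± 0.68, and the highest rpl32, at 0.30 ± 0.19. For rps14, HRE1ox air gave 6.97 and 8.42, against 7.85 and 8.98 in WT air, so the groups overlapped. In 5 genes, rps4, rps15, rps16, accD and ycf3, both HRE1ox air arrays were lower than both WT air arrays (17.5% of all probe sets), and in 0 genes both were higher (16.8%).

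The test of whether the hypoxia difference itself differed between HRE1ox and WT called 0 of the 26 genes, and 0.0804% of all tested probe sets. At an unadjusted p under 0.05 there were 2 genes, rpl20 and ycf3, beside 762 of the 13687 tested probe sets. The difference was -1.07 ± 0.21 for rpl20 (adjusted p = 0.166) and -0.85 ± 0.36 for ycf3 (adjusted p = 0.861). With the replicate block, the rpl20 value was -1.07 ± 0.19 (adjusted p = 0.0692), beside 0.577% of all probe sets. With the 4 arrays that stood apart as a block, rpl20 was called in this test (adjusted p = 0.0417), beside 0.599% of all probe sets. The size of this rpl20 difference was the same in these fits, and whether it was called depended on the block.

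**Figure D4:**
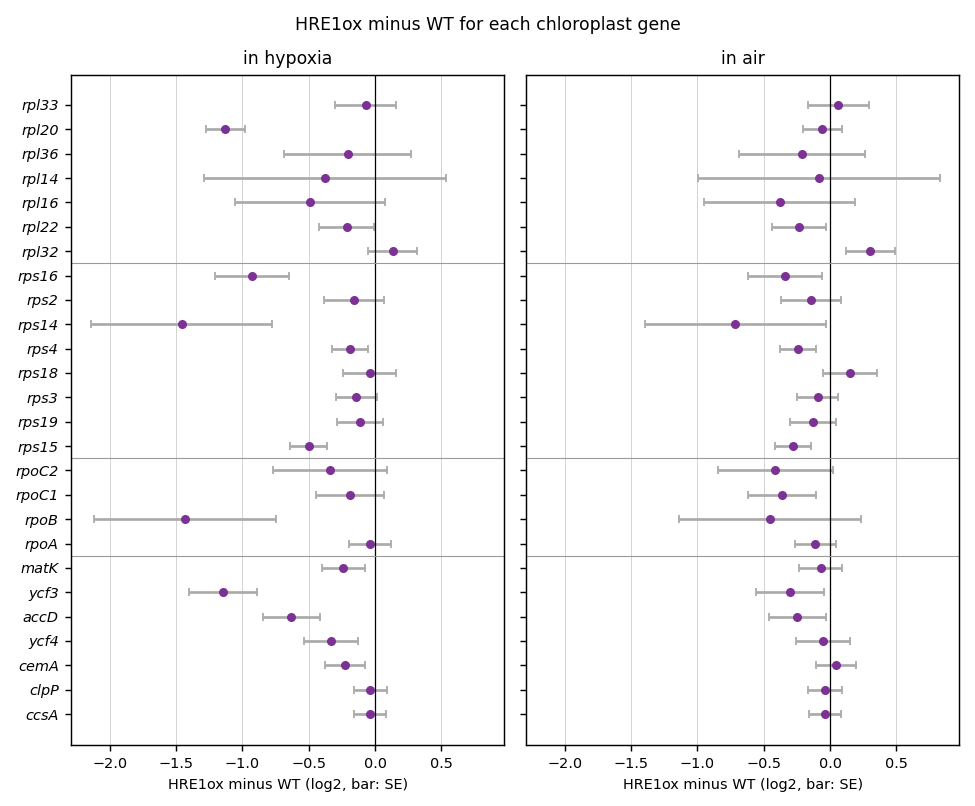
HRE1ox minus WT (log2) for the 26 chloroplast genes in hypoxia (left) and in air (right), as points with the SE of the 12-array limma fit. In hypoxia, 25 genes lie left of 0, led by rps14, rpoB, ycf3 and rpl20, at -1.46, -1.44, -1.15 and -1.13, and only the rpl20 difference was called.

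HRE2ox seedlings showed no called change in hypoxia against HRE2ox air, with 6.96% of all tested probe sets called. At an unadjusted p under 0.05 was 1 gene, ycf3, beside 2459 of the 13687 tested probe sets. The ycf3 arrays read 8.62 and 9.31 in HRE2ox hypoxia, against 8.17 and 8.48 in HRE2ox air. They did not overlap, and the difference was 0.64 ± 0.26 (adjusted p = 0.216). The median over the 26 genes was -0.03. For accD, HRE2ox hypoxia gave 9.27 and 9.52, against 9.16 and 9.79 in HRE2ox air. The clpP signal was 12.49 and 12.52 in HRE2ox hypoxia, against 12.46 and 12.60 in HRE2ox air. Both genes overlapped. The matK values were 13.38 and 13.21 in HRE2ox hypoxia, against 13.36 and 13.27 in HRE2ox air. For ccsA, HRE2ox hypoxia gave 13.06 and 13.13, against 13.18 and 13.34 in HRE2ox air, and the difference of -0.17 was among the lower ones. The cemA values were 12.49 and 12.57 in HRE2ox hypoxia, against 12.57 and 12.96 in HRE2ox air. For ycf4, HRE2ox hypoxia gave 11.70 and 12.05, against 11.83 and 12.38 in HRE2ox air. For cemA no hypoxia array exceeded an air array, whereas the ycf4 groups overlapped. Hypoxia and air groups of HRE2ox did not overlap, with hypoxia lower, for 5 genes, ccsA, cemA, rpl36, rpoA and rps4 (29.0% of all probe sets), and with hypoxia higher for 2, rpl20 and ycf3 (22.6%). By replicate number, a less well grounded matching in HRE2ox, 8 genes were lower in hypoxia in both replicates (39.5%).

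None of the 4 polymerase genes passed the test in HRE2ox hypoxia against HRE2ox air. HRE2ox hypoxia gave 7.81 and 6.22 for rpoB, against 6.95 and 7.57 in HRE2ox air. For rpoC1 the values were 9.88 and 10.01 in HRE2ox hypoxia, against 10.29 and 9.98 in HRE2ox air. For rpoC2 they were 9.05 and 9.01 in HRE2ox hypoxia, against 8.74 and 9.21 in HRE2ox air. The rpoB replicates in hypoxia were thus 1.59 apart, with replicate 1 the higher, whereas those of rpoC2 were 0.04 apart. The rpoA arrays read 13.18 and 13.13 in HRE2ox hypoxia, against 13.26 and 13.28 in HRE2ox air.

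Against WT, HRE2ox air was higher for 22 of 26 genes on average, with a median of 0.24, against 0.34 for the other 43 chloroplast genes. None was called (0.935% of all probe sets), and 3 had an unadjusted p under 0.05, beside 2082 of the 13687 tested probe sets. These were rpoA at 0.43 ± 0.16, cemA at 0.46 ± 0.15 and ycf4 at 0.51 ± 0.20, with adjusted p of 0.242, 0.206 and 0.281. For cemA, HRE2ox air gave 12.57 and 12.96, against 12.34 and 12.28 in WT air. The arrays did not overlap, with HRE2ox higher, for 12 of 26 genes (24.1% of all probe sets) and for 25 of the other 43 chloroplast genes. With HRE2ox lower, this held for 3 genes, rps14, rps16 and ycf3 (22.3%), and for 2 of the other 43. In hypoxia the median HRE2ox minus WT difference was -0.02, and again 0 were called (0.0731%). Without overlap, 5 genes were higher (18.3%) and 5 lower (19.5%). The lower ones were rpl20, rpoB, rps14, rps16 and accD. The lowest HRE2ox minus WT differences were -1.38 for rpoB and -1.30 for rps14, against -1.44 and -1.46 for HRE1ox minus WT in hypoxia. The highest was 0.28, for rpl32. At an unadjusted p under 0.05 there were 2 genes, beside 1238 of the 13687 tested probe sets. They were rpl20 at -0.45 ± 0.15 and rps16 at -0.94 ± 0.28, so rpoB and rps14 were not among them. For rpl20 that was 8.59 and 8.56 in HRE2ox hypoxia, against 9.11 and 8.93 in WT hypoxia. The test of whether the hypoxia difference itself differed between HRE2ox and WT called 0 of 26 (0.0292%), with rpl20 at -0.71 ± 0.21 (adjusted p = 1). The 4 arrays that stood apart include 1 WT array of each comparison and no HRE2ox array. With those 4 as a block, 0 genes were called in air (5.84% of all probe sets) and 1, rps16, in hypoxia (0.738%).

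The size of the difference between replicates varied from gene to gene. In all 4 WT and HRE1ox groups, replicate 1 was above replicate 2 for 11 of 26 genes (27.6% of all probe sets) and below it for 4, rpoB, rps14, matK and rps16 (27.2%). The difference had the same sign and a size of at least 0.5 in all 4 groups for 6 genes, rpl14, rpl16, rpl36, rpoB, rpoC2 and rps14, beside 4.71% of all probe sets and 10 of the other 43 chloroplast genes. These 6 were singled out after their values were seen. For rpl14, replicate 1 minus replicate 2 was 1.54 in HRE1ox hypoxia, 1.68 in HRE1ox air, -1.08 in HRE2ox hypoxia, -1.04 in HRE2ox air, 2.02 in WT hypoxia and 1.90 in WT air. The sign in HRE2ox was thus opposite to that in the other 4 groups. The GAPDH 3' minus 5' signal was lower in replicate 1 than in replicate 2 in WT and HRE1ox and higher in HRE2ox, and its part in the difference was not tested.

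Within a unit, this replicate difference was alike for some neighbours and unlike for others. In the rpoB, rpoC1, rpoC2 unit, the median over the 4 WT and HRE1ox groups was -1.06 for rpoB, 0.44 for rpoC1 and 0.76 for rpoC2. In the unit of rpl33 and rps18 it was 0.35 and 0.24, and replicate 1 was the higher in all 4 groups for both genes. In the ribosomal protein cluster the neighbours rpl36, rpl14 and rpl16 had 0.96, 1.79 and 1.05, and rpl22 had 0.24. The genes rps3, rps19 and rpoA of that cluster had -0.17, 0.11 and -0.09. The WT hypoxia minus air differences of the same unit were 0.77, 0.36 and 0.44 for rpoB, rpoC1 and rpoC2, all above 0. In the unit of clpP and rpl20 they were 0.04 for clpP and 0.89 for rpl20.

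**Figure D5:**
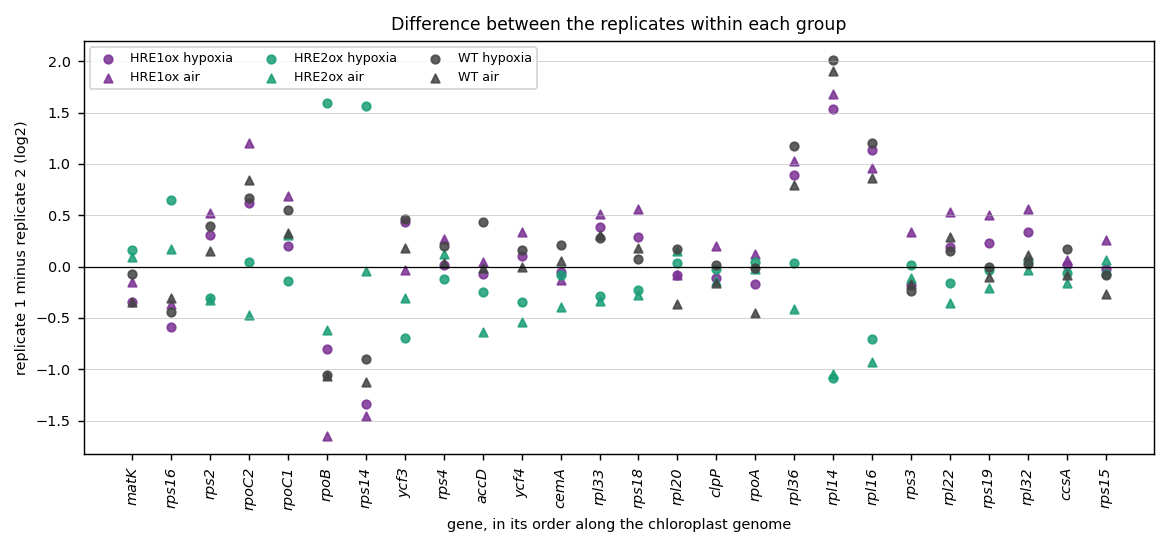
Replicate 1 minus replicate 2 (log2) within each of the 6 groups, for 26 genes in their order along the chloroplast genome (purple, HRE1ox; green, HRE2ox; grey, WT; circles, hypoxia; triangles, air). For rpl14 the 4 WT and HRE1ox points lie between 1.54 and 2.02 and both HRE2ox points near -1.08 and -1.04, while rpoB and rps14 lie below 0 in WT and HRE1ox.

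Nuclear genes whose products serve the same machinery were read from 8 lists with 80 genes. A probe set was assigned to 17 of them, and 16 were tested: 8 of 32 plastid ribosomal proteins, 4 of 13 Clp proteins, 2 of 3 cytochrome assembly proteins and 2 of 6 splicing proteins. The lists of sigma factors, phage-type polymerases, polymerase-associated proteins and carboxylase subunits had no tested member. By limma, 0 of the 16 was called in any of the 10 comparisons, in which 0.00731% to 22.3% of all tested probe sets were called. At an unadjusted p under 0.05 there were 0 to 2 of the 16, beside 354 to 4588 of the 13687 tested probe sets. As a tissue check, 2 of 15 green-tissue genes were tested, with 0 called. All 4 root genes were tested, and all 4 averaged lower in hypoxia in each genotype. In the average over genotypes 4 were called lower, beside 22.3% of all tested probe sets called in either direction. The counts were 3 in WT (6.58%), 4 in HRE1ox (12.4%) and 3 in HRE2ox (6.96%). Whether these falls reflect tissue makeup was not tested, nor was their part in the chloroplast values.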

How the data were processed

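Total RNA of whole seedlings was hybridized to 12 Affymetrix ATH1 arrays. The deposited value is a linear intensity, and GCRMA (background correction and normalization over arrays) is named per the submitters' processing notes; its version is not given in the sources used here. Of 22810 probe sets, 64 controls were left out and 13687 that reached log2 4 on at least 2 arrays were tested on log2 (intensity + 1). Genes came from the platform annotation, which gave 1 gene for 13513 probe sets, several for 503 and none for 8730.

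One limma model (R 4.3.3, limma 3.58.1, lmFit and eBayes) covered 6 groups of 2 arrays, with 6 residual and 3.25 prior degrees of freedom, 10 comparisons and two-sided p-values adjusted by Benjamini and Hochberg within each. It was also run on simulated data with independent noise on each array. That run holds no replicate difference shared between groups, so it cannot show how the model handles one. Equal replicate numbers are not stated to share a batch. Replicate differences correlated positively among WT and HRE1ox groups and inversely with HRE2ox groups, so an 8-array fit with replicate block (3 residual degrees of freedom) is given beside the result. Members and lists were chosen with earlier results of these data known. All members may be named, with values on every array for called, polymerase, accD, clpP, matK, ccsA, cemA and ycf genes. Sequences were not used here, and some genes that match the naming rule are not reported here. Alternatives are named in the closing section.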

Additional observations from a re-analysis of the deposited data

Results flagged for a closer look

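For 4 genes every hypoxia array lay on one side of every air array in 1 genotype and on the other side in another, beside 5.72% of all tested probe sets and 4 of the other 43 chloroplast genes. For rpl20 hypoxia minus air was -0.18 in HRE1ox, against 0.18 in HRE2ox and 0.89 in WT. The HRE1ox and WT values differed by -1.07, which did not pass the test (adjusted p = 0.166, limma), and the HRE1ox and HRE2ox values were not tested against each other. The cemA difference was -0.24 in HRE2ox and 0.20 in WT (adjusted p = 1 for the difference). For rpoA it was 0.24 in HRE1ox and -0.12 in HRE2ox, which was not tested. For rps4 it was -0.14 in HRE2ox, against 0.18 in HRE1ox and 0.13 in WT (adjusted p = 1 for HRE2ox against WT, and HRE1ox against HRE2ox was not tested).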

How the results depend on the processing

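The 26 genes were recounted under each alternative: replicate blocks, only the arrays compared, median centring, quantile normalization, no pseudocount, no filter or a filter at log2 6, robust eBayes with a mean trend, and each array left out. Of these counts 135 stayed within 1.5 times and 30 moved. Of 4290 differences of single genes, 297 changed sign, 274 of them with an array left out, and 0 of these had been called; rpl20 in HRE1ox minus WT in air was 0.12 without WT air replicate 2, against -0.06. Small medians also changed sign: to -0.09 for HRE1ox hypoxia minus air and 0.01 for HRE1ox minus WT in air without HRE1ox air replicate 2, to 0.04 without HRE2ox air replicate 2 and 0.01 with centring for HRE2ox hypoxia minus air, to 0.04 to 0.05 under 3 alternatives for HRE2ox minus WT in hypoxia, and to 0.11 for the HRE1ox interaction without HRE1ox air replicate 1. With the replicate block on 8 arrays the counts were 5 for WT hypoxia minus air, 2 for HRE1ox hypoxia minus air and 5 for HRE1ox minus WT in hypoxia. The 12-array replicate block changed no count. With the 4 arrays that stood apart as a block, the counts were 3 for average hypoxia (35.6% of all probe sets), 1 for HRE1ox hypoxia minus air (23.3%), 3 for HRE1ox minus WT (2.79%) and 1 for HRE2ox minus WT in hypoxia (0.738%), and 1 for the HRE1ox interaction (0.599%). A block crossed in HRE2ox, chosen after seeing the data, gave 2 for average hypoxia (35.3%), 2 for WT hypoxia minus air (12.9%), 1 for HRE2ox hypoxia minus air (14.4%), 4 for HRE1ox minus WT in hypoxia (2.58%), 1 each for HRE2ox minus WT in air (8.04%) and in hypoxia (1.07%), and 1 for the HRE1ox interaction (0.468%). With the arrays compared alone, WT hypoxia minus air had 0 (2.67%) and HRE1ox minus WT in hypoxia 0, as had all probe sets, and HRE1ox minus WT in hypoxia also had 0 on 8 arrays without a block (0.314%), likewise chosen after seeing the data. Leaving out 1 array gave 0 to 1 for average hypoxia and 0 in all 4 fits for HRE1ox minus WT in hypoxia. Without HRE2ox hypoxia replicate 1 the average call was ycf3. The cause of these changes was not tested. No separate fit of the arrays compared exists for the average, which uses all 12. The lone array left in a group was assumed to vary like the other groups.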

Other observations

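The 7 probe sets shared between gene copies were left out of the 26. For rps12, a small-subunit protein, 1 of its 2 shared probe sets fell by 0.79 in HRE1ox hypoxia relative to WT hypoxia (SE 0.14, adjusted p = 0.0413, limma). The largest shared difference in that comparison was that of ycf2, with -1.39 ± 0.28 (adjusted p = 0.0714). In WT hypoxia minus air all 7 were above 0, with a median of 0.26.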
